A study of Mus musculus with 4 samples.

Results

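Among the α-lymphoid progenitors (αLPs) of mouse bone marrow, the cells described here were chosen by 2 natural killer (NK) lineage genes, *Eomes* and *Klrd1*. A cell was taken when *Id2* and at least *Eomes* or *Klrd1* had a value L of at least 1, where L is the natural logarithm of 1 plus the reads of the gene per 10000 reads of the cell, and when *Il1rl1*, *Ccr6*, *Cd3e* and *Cd3g* were each under 1. These limits left 117 cells of the 7013 *Id2*-positive cells in the series. They are called Eomes+ or Klrd1+ cells below. The genes that chose them are reported as a description and were not tested.

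αLPs, sorted from the bone marrow of C57BL/6 mice as lineage-negative cells with CD127 and LPAM-1 but without FLT3, hold innate lymphoid cell (ILC) precursors and ILC2s. The lineage antibodies used to remove other cells included CD3e, CD11b and NK1.1, so cells with NK1.1 protein on their surface were sorted away before sequencing. Cells of wild-type (WT) mice and of G3SEKO mice, from which the tandem super-enhancers related to *Gata3* were deleted with CRISPR-Cas9 in the germ line, were marked by oligonucleotide-tagged antibodies (hashtags), mixed, captured with BD Rhapsody and read by TAS-Seq, a whole-transcriptome method for single cells. The mice were 6 to 12 weeks old and of both sexes, and no group was treated. Experiment 1 pooled 10 WT and 8 G3SEKO mice, and experiment 2 pooled 7 WT and 9 G3SEKO mice. The labels do not say that a hashtag marks an animal, so the cells that shared genotype and experiment were treated as 1 sample, called a pool. In experiment 2 the labels list both hashtags, A0302 and A0303, under WT, and the cells with A0303 were taken as G3SEKO. Every statement on genotype in experiment 2 rests on that assignment.

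NK cells and ILC1s form the group 1 ILCs, which share the transcription factor T-bet and the capacity to make interferon-γ, and NK cells in addition need Eomes and carry a cytotoxic programme. CD94, the product of *Klrd1*, pairs with NKG2 proteins to form receptors for a non-classical MHC class I molecule. ILC precursors (ILCPs) express *Zbtb16*, which encodes PLZF, and give rise to ILC1s, ILC2s and ILC3s, whereas NK cells are thought to branch off before or at the edge of that stage.

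Of the 117 cells, 25 came from WT and 5 from G3SEKO mice in experiment 1, and 24 from WT and 63 from G3SEKO mice in experiment 2. Their median depth was 597846 and 1013347 reads per cell in experiment 1, and 46620.0 and 55517 reads in experiment 2, for WT and G3SEKO respectively. The cells of experiment 1 were thus more deeply read, and a median of 6676 and 8035 genes was detected in them, against 2692.5 and 2974 in experiment 2. Reads were not collapsed to molecules. The intervals given below treat the cells of a pool as independent and cover counting error only, not the spread between mice or pools. Of the barcodes listed, 11 occurred in both experiments, but 0 of the 117 cells carried a shared one. *S100a8*, a granulocyte gene that marks myeloid doublets, had a read in 19 of 25 and 5 of 5 cells of experiment 1, but reached a level L of at most 0.0960, and in experiment 2 it had 0 reads in these cells. In CPM (reads of a gene per 1000000 summed reads of a pool) it stood at 3.43 and 4.76 in experiment 1, against 3.51 and 4.13 in ILCP-like cells.

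The label of these cells was first described through the genes that chose them. *Eomes* (GRCm38 chr9:118478212-118486132, plus strand) alone chose 51 cells, *Klrd1* (chr6:129591782-129598775, plus strand) alone chose 33, and 33 cells passed with both. The highest L of the 2 genes was 1.03 in the lowest cell inside the limit and 0.975 in the highest cell outside it, and 49 of the 117 cells had a highest L under 2. A further 25 cells met the other limits with a highest L between 0.5 and 1. Across the 2777 cells that met every limit other than that on *Eomes* and *Klrd1*, the share of *Klrd1*-positive cells was 39.3% (33 of 84, exact 95% interval 28.8 to 50.5%) where *Eomes* was positive and 1.23% (33 of 2693, 0.845 to 1.72%) where it was not. The share was higher in the *Eomes*-positive cells of each of the 4 pools, at 58.8% against 3.62% in WT and 25.0% against 3.13% in G3SEKO cells of experiment 1, and at 22.7% against 0.133% and 41.5% against 2.35% in experiment 2. These shares describe cells of the same pools through the genes that chose them, and the joined shares mix pools of unequal depth. They were given no p and do not test the label.

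**Figure D1:**
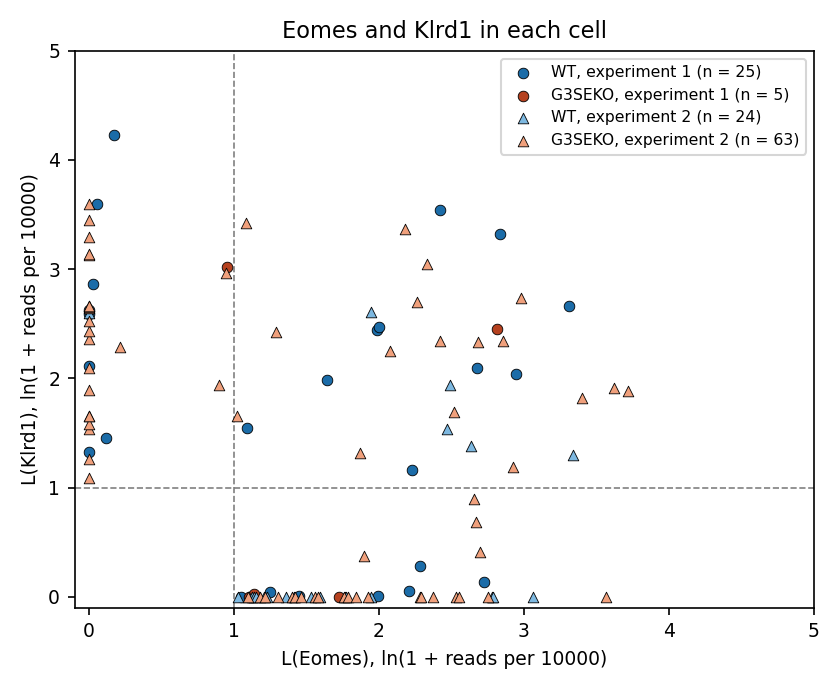
Level L of *Eomes* (x axis) and of *Klrd1* (y axis), both as ln(1 + reads per 10000), in each of the 117 cells, with colour and symbol giving the pool and dashed lines the limit of 1. Cells lie in 3 groups, with 51 passing by *Eomes* alone, 33 by *Klrd1* alone and 33 by both.

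The other markers of NK cells and ILC1s were found in only some of the cells. Of the 4 markers that the label names beside *Eomes* and *Klrd1*, namely *Tbx21* (T-bet), *Ncr1* (NKp46), *Xcl1* (the chemokine XCL1) and *Il2rb* (the receptor chain shared by IL-2 and IL-15), 56 cells had 0 at an L of at least 1, 47 cells had 1, 12 cells had 2 and 2 cells had 3. *Il2rb* reached that level in 46 of 117 cells, *Ncr1* in 17, *Tbx21* in 10 and *Xcl1* in 4. *Klrb1c*, which encodes NK1.1, reached it in 8 cells, in a population sorted against that protein. Genes of the lineage that reached it in more cells were *Nkg7* (78 of 117), a granule protein of cytotoxic lymphocytes, *Ctsw* (75), which encodes cathepsin W, and *Cd7* (67). *Klrk1*, which encodes the activating receptor NKG2D, reached it in 40 cells. Since *Tbx21*, *Ncr1* and *Xcl1* were each under that level in most of the cells, the cells are named here by the genes that chose them and not as NK cells or ILC1s.

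A few effector genes of NK cells were at or near 0. *Ifng* had 0 reads in all 4 pools. *Gzma* (granzyme A) was at 0.171 CPM in WT cells of experiment 1 and at 0 in the other pools, *Prf1* (perforin) at 0.0571 CPM in the same pool and at 0 in the others, and *S1pr5*, a receptor that NK cells use to leave the bone marrow, at up to 0.929 CPM. *Gata3*, *Rora* and *Tcf7*, factors of ILC precursors, reached an L of at least 1 in 52, 82 and 93 of the 117 cells, and *Zbtb16* in 52.

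The Eomes+ or Klrd1+ cells were next compared with 3 other classes of the same pools. ILCP-like cells had *Zbtb16* at an L of at least 1 with *Bcl11b* below it and neither *Eomes* nor *Klrd1* (453 cells), LTi/ILC3-like cells had *Ccr6* (148 cells), and ST2+ ILC2-like cells had *Il1rl1*, which encodes ST2 (4000 cells). Reads were summed per class and pool, sums of at least 5 cells were fitted with edgeR's quasi-likelihood test with the pool as a block, and p-values were adjusted by Benjamini-Hochberg over all genes tested. LTi/ILC3-like sums came from experiment 2 alone, and ST2+ ILC2-like sums from every pool other than G3SEKO of experiment 1. In what follows, 4 values are in the order WT and G3SEKO of experiment 1, then WT and G3SEKO of experiment 2.

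Against ILCP-like cells, 1 of 15718 genes was called higher in the Eomes+ or Klrd1+ cells and 0 were called lower by edgeR (0.00636% and 0.0% of the genes), leaving out the genes that define the classes. At an unadjusted p under 0.05, 454 genes were higher (2.89%) and 849 lower (5.4%), and DESeq2 called 227 higher and 342 lower. The gene called was *Cd226*, which encodes DNAM-1, an activating adhesion receptor of NK cells and T cells. It stood at 158, 176, 153 and 276 CPM in the Eomes+ or Klrd1+ cells and at 22.6, 37.2, 18.6 and 43.8 CPM in ILCP-like cells, and all 4 pools of the former lay above all 4 of the latter (log2 difference 2.77 ± 0.26 (SE), adjusted p = 0.00746). Its level was not particular to the Eomes+ or Klrd1+ cells, since it was 158 and 201 CPM in LTi/ILC3-like and 136, 135 and 352 CPM in ST2+ ILC2-like cells. The call was kept in 6 of 12 alternatives. It was lost without WT of experiment 1, without WT of experiment 2, without G3SEKO of experiment 2, without the block, with an L of at least 2 and without cells with an *S100a8* read, while the log2 difference over all alternatives was 2.37 to 4.38.

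Of the genes shared by NK cells and ILC1s, 24 of the 28 in the files passed the filter on low counts. By edgeR, 1 of them was called higher (*Cd226*) and 0 lower than in ILCP-like cells, 13 were higher and 0 lower at an unadjusted p under 0.05, and in 12 all pools lay above those of ILCP-like cells, against 1.39% of all genes tested. The median log2 difference over the 24 genes was 2.04, against -0.12 over all genes tested, and *Klr* genes and *Xcl1* near 0 in ILCP-like cells, which passed the filter mainly through the Eomes+ or Klrd1+ sums, enter these counts. Summed over the list, the Eomes+ or Klrd1+ cells held 3562 to 5599.8 CPM, ILCP-like cells 1681 to 2553, LTi/ILC3-like cells 2087 to 2777 and ST2+ ILC2-like cells 372 to 1498. Several of these genes lie beside *Klrd1* on chromosome 6, in the gene complex named for NK cells, and none of the genes other than *Cd226* passed the adjusted threshold.

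*Cd7*, a surface protein of T cells, NK cells and early lymphoid cells, stood at 853, 462, 622 and 1407 CPM in the Eomes+ or Klrd1+ cells and at 147, 1.03, 87.8 and 247 CPM in ILCP-like cells (log2 difference 3.57 ± 0.96 (SE), adjusted p = 0.378 by edgeR). The 2 ranges did not overlap, with the lowest pool of the former at 462 and the highest of the latter at 247 CPM. *Cxcr3*, a chemokine receptor of type 1 lymphocytes, was at 124, 109, 63.8 and 165 against 32.6, 0.258, 8.67 and 7.89 CPM, again without overlap. *Il12rb2*, a chain of the receptor for IL-12, was at 51.7, 52.7, 53.8 and 69.7 CPM against 18.9, 6.45, 21.9 and 18.3, and *Il18rap*, a chain of the IL-18 receptor, at 188, 151, 270.2 and 92.0 against 38.9, 67.3, 74.9 and 54.5. Both cytokines act on NK cells and ILC1s, and both receptor genes were higher in each pool of the Eomes+ or Klrd1+ cells than in any pool of ILCP-like cells, although edgeR called neither (adjusted p = 0.507 and 0.297). *Il18rap* was not particular to the Eomes+ or Klrd1+ cells, since all their pools lay below those of LTi/ILC3-like cells.

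The 4 markers of the label gave mixed results, and edgeR called none of them. *Tbx21* was at 41.3, 63.3, 53.1 and 105 CPM against 17.1, 0, 29.9 and 19.7 CPM, a direction that turned with an L of at least 2 (log2 difference -0.99), and *Ncr1* at 82.9, 0, 87.4 and 154 against 2.55, 0.516, 26.7 and 31.8 CPM, with 0 *Ncr1* reads in the 5 G3SEKO cells of experiment 1. *Il2rb* was at 345, 528, 129 and 419 CPM against 216, 381, 108 and 148, and these ranges overlapped. *Xcl1* was at 55.1, 45.8, 6.72 and 50.4 CPM, against 0.331 CPM in ILCP-like cells of WT in experiment 1 and 0 in the other ILCP-like pools, but it was carried by 5, 2, 2 and 3 cells with a read. *Nkg7* (788, 1129.7, 376 and 1038 against 347, 340.3, 400.0 and 469 CPM) and *Ctsw* (497, 479.6, 461 and 598 against 239, 424, 263 and 306.9 CPM), the markers present in most cells, were also present in all 4 ILCP-like pools, and edgeR called neither. In ST2+ ILC2-like cells, *Nkg7* was at 17.9, 7.72 and 367 CPM and *Ctsw* at 11.1, 12.9 and 192 CPM, in the order WT of experiment 1, WT and G3SEKO of experiment 2, so that both were near 0 in WT but not in G3SEKO mice.

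*Klrd1* lies in the natural killer gene complex, a cluster of lectin-like receptor genes. GENCODE lists 24 protein-coding *Klr* genes there (GRCm38 chr6:128609227-131247362), of which 18 were in the files and 17 remain without *Klrd1*. Summed over those 17, the Eomes+ or Klrd1+ cells held 1265, 526, 655 and 962 CPM, and ILCP-like cells 204, 110, 83.2 and 172 CPM. LTi/ILC3-like cells, mainly through *Klrb1b*, held 851 and 911 CPM, and ST2+ ILC2-like cells 15.6, 11.8 and 122 CPM. Of the 11 *Klr* genes tested, 8 were higher and 0 lower than in ILCP-like cells at an unadjusted p under 0.05 (2.89% and 5.4% of all genes), and 0 passed the adjusted threshold. Several of them, such as *Klrc1* (at most 2.57 CPM) and *Klri2* (at most 1.53 CPM), were near 0 in ILCP-like cells and passed the filter on low counts mainly through the sums where they are high, so that these counts partly follow from the filter. Members of the *Klra* and *Klrc* families are close copies of each other, so that reads may have been split or moved between them. This list was chosen after values had been seen.

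*Klrk1*, beside *Klrd1* at chr6:129610323-129623864 on the minus strand, was at 544, 422, 298 and 491 CPM in the Eomes+ or Klrd1+ cells and at 38.8, 0.258, 29.1 and 16.2 CPM in ILCP-like cells (log2 difference 4.66 ± 1.33 (SE), adjusted p = 0.418 by edgeR). *Klrc1*, which encodes the inhibitory partner NKG2A of CD94, was at 70.2, 79.1, 12.1 and 19.5 CPM against 2.57, 0.258, 0 and 0 CPM, and *Klrc2*, which encodes the activating partner NKG2C, at 34.6, 7.87, 30.9 and 4.18 against 1.43, 0.258, 3.398 and 0.678 CPM. The partner genes of CD94 were thus present, at levels that varied more between pools than that of *Klrk1*. *Klri2* was at 173, 2.46, 6.05 and 129 CPM against at most 1.53 CPM, and *Klrb1c* at 88.4, 0.164, 61.2 and 60.1 CPM against at most 0.357 CPM. *Klra1* and *Klra7*, of the Ly49 receptors that NK cells gain as they mature, had a read in 3 and 3 WT cells of experiment 1 and in 0 and 3 G3SEKO cells of experiment 2, and *Klra1* in 1 G3SEKO cell of experiment 1. Of the 10 genes of mature NK cells tested, 0 were called, 2 were higher and 0 lower at an unadjusted p under 0.05 (2.89% and 5.4% of all genes), and their median log2 difference was 0.05.

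**Figure D2:**
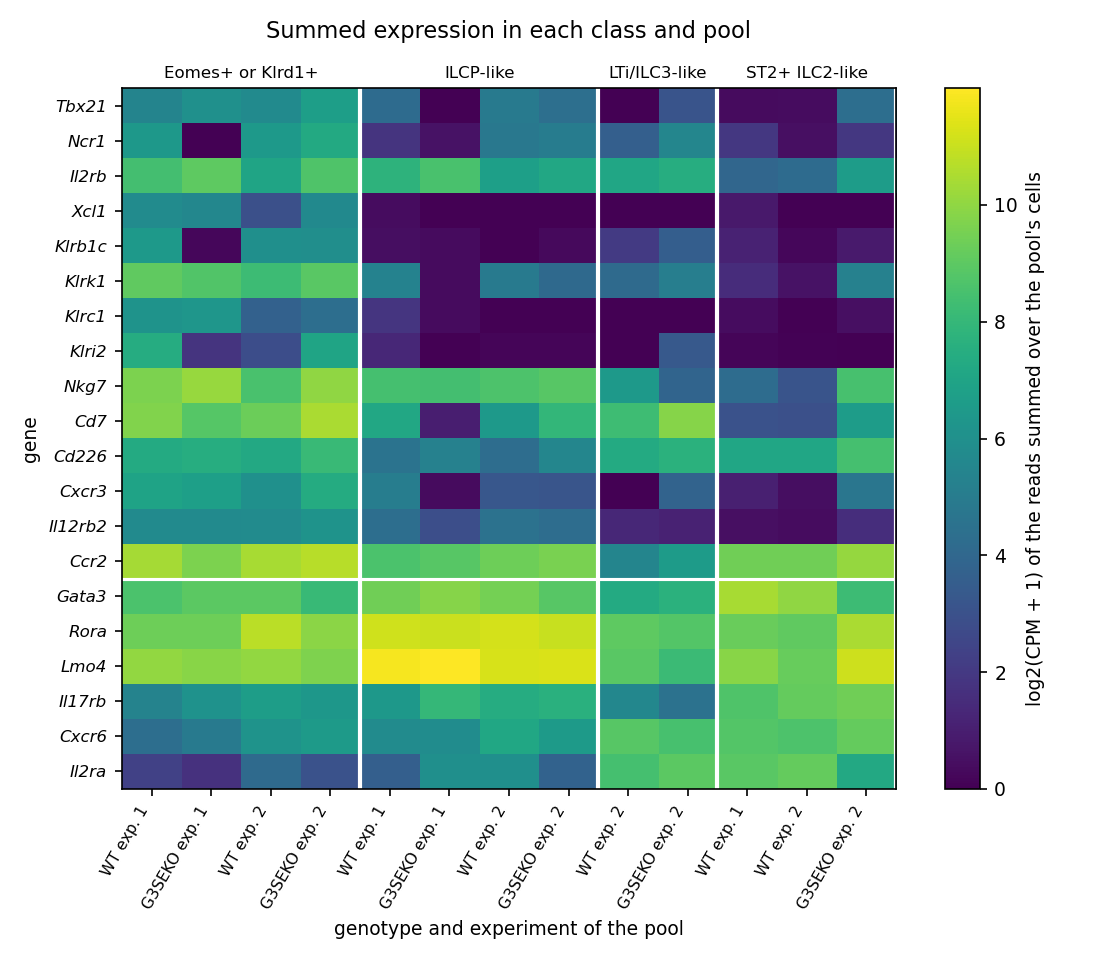
Expression as log2(CPM + 1) of the summed reads (colour) of the genes named at the left (rows of the map) in each class and pool (columns). Most genes above the horizontal white line are brighter in the columns of Eomes+ or Klrd1+ cells than in ILCP-like cells, although *Ncr1* and *Klrb1c* are dark in G3SEKO of experiment 1, *Il2rb* and *Nkg7* are also bright in ILCP-like cells and *Cd226* in the other classes; *Rora* and *Lmo4* below the line are brighter in ILCP-like cells.

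For signalling genes the counts were near those over all genes. Of 16 adaptors and kinases of NK activation, 0 were called by edgeR, and 1 was higher and 0 lower at an unadjusted p under 0.05 (2.89% and 5.4% of all genes). *Tyrobp*, which encodes the adaptor DAP12, was at 1276, 985, 641 and 813 CPM against 655, 405, 627 and 444 CPM in ILCP-like cells. Of 13 genes of IL-2 and IL-15 receptor signalling, 0 were called, and 1 was higher and 1 lower at an unadjusted p under 0.05, and the same counts held for the 9 genes of ILC1s. *Ccl5*, a chemokine gene of NK cells and T cells, spread widely, at 1041, 1342, 463 and 93.3 CPM against 1128, 270.4, 336 and 146, with the deeper experiment higher in the Eomes+ or Klrd1+ cells.

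Genes of ILC specification were present in these cells. Of 23 factors tested, 0 were called by edgeR in either direction, 2 were higher and 6 lower at an unadjusted p under 0.05 (5.4% of all genes were lower at that level), and the median log2 difference was -0.35. *Lmo4*, a LIM-domain cofactor of GATA3 and other factors, was at 1045, 924, 1054 and 811 CPM in the Eomes+ or Klrd1+ cells and at 3661, 4093, 2464 and 2595 CPM in ILCP-like cells (log2 difference -1.63 ± 0.34 (SE), adjusted p = 0.291 by edgeR). *Rora*, which encodes the nuclear receptor RORα, was at 657, 651, 1714 and 975 CPM against 2229, 2081, 2394 and 2063 (log2 difference -1.16 ± 0.29 (SE), adjusted p = 0.357 by edgeR). For both genes all pools of the Eomes+ or Klrd1+ cells lay below those of ILCP-like cells, as did 3.51% of all genes tested. *Gata3* was at 388, 499, 500.0 and 270.1 CPM against 675, 917, 726 and 467, and the lowest of the latter lay below 2 of the former. *Tcf7*, which encodes TCF-1, was at 971, 2019, 1800.4 and 1303 CPM against 1735, 1964, 2032 and 1578, with 1 of the 4 pools above and the others below the ILCP-like cells of the same pool.

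Surface genes of precursors had no single direction. *Itga4*, the α chain of LPAM-1, was at 557, 896, 762 and 526 CPM against 889, 1678, 1076 and 1059 in ILCP-like cells, while *Itgb7*, its β chain, was at 225, 205, 94.1 and 287 against 185, 142, 229 and 288 CPM. *Il17rb*, a receptor chain for IL-25, was at 40.3, 67.6, 101.5 and 81.5 CPM against 82.9, 255, 172 and 198. *Il7r*, the gene of CD127 on which the cells were sorted, was at 1471, 1581, 3035 and 1884 CPM against 1966, 2244, 2283 and 2380.0, and *Il18r1* at 588, 589.8, 621 and 648 against 741, 691, 582 and 646. *Itga4* and *Il17rb* were lower than in the ILCP-like cells of the same pool in all 4 pools, whereas *Itgb7*, *Il7r* and *Il18r1* were not. *Ccr2*, a chemokine receptor used in leaving the bone marrow, was at 1332, 798, 1387 and 1686 CPM against 388, 477, 655 and 769 (log2 difference 1.26 ± 0.21 (SE), adjusted p = 0.204 by edgeR), with all pools of the Eomes+ or Klrd1+ cells higher.

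Genes of other lineages were measured beside these results, and their part in them was not tested. *Trbc1*, the constant region of the T cell receptor β chain, which precursors transcribe before rearrangement, was at 1301, 2746, 1892 and 1659 CPM against 2477, 2576, 2144 and 1961 in ILCP-like cells. *Cd3d* was at 54.0, 0.984, 4.03 and 9.29 CPM and *Trac* at 35.6, 0.328, 10.8 and 0.232 CPM, each highest in WT cells of experiment 1. The limits on *Cd3e* and *Cd3g* removed 11, 3, 6 and 6 cells that met the limit on *Eomes* or *Klrd1*, and with no *Cd3d*, *Cd3e* or *Cd3g* read allowed, 11, 1, 19 and 57 cells remained. Summed over the list, myeloid genes stood at 0.464 to 17.0 CPM in the Eomes+ or Klrd1+ cells and at 0.431 to 19.5 CPM in ILCP-like cells, erythroid genes at 0 to 8.04 CPM against 3.27 to 7.03, and B lineage genes at 1.31 to 57.8 CPM against 7.74 to 63.3. Plasmacytoid dendritic genes summed to 142 to 255 CPM against 246 to 662, basophil and mast cell genes to 24.2 to 189 CPM against 42.4 to 80.4, and T lineage genes to 2211 to 3669 CPM against 3392 to 4081.

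Against LTi/ILC3-like cells, which came from experiment 2 alone, edgeR called 25 of 15718 genes higher (0.159%) and 42 lower (0.267%). Their 2 sums held 38 and 106 cells. Of the 67 calls, 64 were kept without G3SEKO of experiment 1, 8 without WT of experiment 1, and 0 without either pool of experiment 2. Without cells with an *S100a8* read, 8 were kept. *Ccr2* was at 43.1 and 93.6 CPM in LTi/ILC3-like cells (log2 difference 4.58 ± 0.33 (SE), adjusted p = 0.000373). *Cd27*, a costimulatory receptor of the tumour necrosis factor receptor family, was at 188, 199, 210.3 and 125 CPM in the Eomes+ or Klrd1+ cells and at 1.04 and 5.70 CPM in LTi/ILC3-like cells, and *Ikzf3*, which encodes Aiolos, at 165, 326, 311.1 and 336 against 22.3 and 52.2 CPM (log2 difference 3.17 ± 0.34 (SE), adjusted p = 0.00566). *Ikzf2*, which encodes Helios, was at 562, 708, 575 and 646 against 112 and 197 CPM (log2 difference 1.98 ± 0.25 (SE), adjusted p = 0.0125). All of these were also present in ILCP-like cells, for example *Ikzf2* at 711, 849, 665 and 624 CPM.

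Of the 22 genes that met the naming rule in the higher direction, the leading 5 were at or near 0 in LTi/ILC3-like cells, so that no fold is given. *Hes1*, a target of Notch signalling, was at 223, 178, 120.3 and 127 CPM against 0 and 0, *Htra3* at 30.7, 97.4, 82.0 and 30.0 against 0 and 0, and *Myc* at 305.2, 162, 67.9 and 242 against 0 and 0.534 CPM. *Cpa3*, a mast cell protease that early progenitors also express, was at 78.6, 189, 24.2 and 169 CPM against 0.519 and 0.178, and *Pdlim1* at 49.9, 21.7, 90.1 and 127 CPM against 0 and 0.534. Of the 33 in the lower direction, *Fam184b*, *Ttn*, *Spns2* and *Iigp1* were at up to 0.492 CPM in the Eomes+ or Klrd1+ cells and at 32.6 to 327 CPM in LTi/ILC3-like cells, and *Pxdc1* was at 0.8, 0.328, 2.02 and 3.25 against 587 and 431 CPM. *Il23r*, the receptor of IL-23 on ILC3s, had 0 reads in all 4 pools against 89.3 and 238 CPM. Of 12 LTi and ILC3 genes tested, 0 were called higher and 2 lower (0.159% and 0.267% of all genes), and the median log2 difference was -2.80, against 0.07 over all genes. Genes at or near 0 in the Eomes+ or Klrd1+ cells, such as *Il23r*, passed the filter on low counts through the LTi/ILC3-like sums, so that this median partly follows from the filter. The classes were also set apart by *Ccr6*, so that a difference in LTi and ILC3 genes partly follows from the choice of cells. Of the 9 genes of ILC1s tested, 0 were called higher and 3 lower (*Cxcr6*, *Tmem176a* and *Tmem176b*; 0.159% and 0.267% of all genes), with a median of -1.09, against 0.07 over all genes. The log2 difference was above 0 for 4 of them, among them *Cxcr3* and *Tnfsf10*, and below 0 for 5. Summed over the list, LTi/ILC3-like cells held 6627 to 6961 CPM and the Eomes+ or Klrd1+ cells 814 to 1574. The list is thus not particular to ILC1s.

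Against ST2+ ILC2-like cells, edgeR called 10 of 15718 genes higher (0.0636%) and 16 lower (0.102%). Of these 26 calls, 0 were kept without WT of experiment 1 or without WT of experiment 2, 1 without G3SEKO of experiment 2 and 0 without cells with an *S100a8* read. *Il12rb2* was at 0.425, 0.332 and 1.99 CPM in the 3 ST2+ pools, and *Mef2c*, a MADS-box factor of lymphoid progenitors, at 139, 33.0, 61.8 and 85.5 CPM in the Eomes+ or Klrd1+ cells against 2.12, 1.61 and 7.97 CPM (log2 difference 4.65 ± 0.72 (SE), adjusted p = 0.0439). *Sulf2*, a heparan sulphatase, was at 83.7, 8.86, 34.3 and 55.0 against 0.154, 0.0271 and 0.398 CPM, and *Fgf15* at 11.3, 90.1, 126 and 15.8 against 0.122, 0.0881 and 0 CPM, the latter from 3, 1, 1 and 2 cells with a read. *A430088P11Rik* was at 108, 40.4, 66.5 and 93.3 against 7.60, 2.24 and 4.38 CPM and was the last of the 5 named. *Il12rb2*, *Sulf2* and *Fgf15* were at or near 0 in the ST2+ pools, so that no fold is given for them. They could pass the filter on low counts only through the sums of other classes.

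The genes lower than in ST2+ ILC2-like cells included *Il2ra*, which encodes CD25, at 3.94, 2.30, 16.8 and 7.20 CPM against 493, 581 and 149 (log2 difference -5.94 ± 0.83 (SE), adjusted p = 0.0287). *Cysltr1*, a receptor for cysteinyl leukotrienes, was at 2.28, 2.13, 13.4 and 8.82 CPM against 335, 364 and 139, and *Cxcr6*, a chemokine receptor of tissue lymphocytes, at 19.5, 29.7, 69.9 and 92.2 CPM against 442, 395 and 579 (log2 difference -3.18 ± 0.38 (SE), adjusted p = 0.0151). *Lztfl1*, a regulator of ciliary trafficking, was at 19.99, 34.6, 114 and 85.5 against 1069.6, 904 and 962 CPM and *Lgals9*, which encodes galectin-9, at 9.37, 1.48, 22.8 and 16.0 against 130.4, 133 and 133 CPM. Over all pools, none of the Eomes+ or Klrd1+ sums reached the ST2+ sums for these 5 genes, which held for 8.96% of all genes tested. Of 20 ILC2 genes tested, 0 were called higher and 4 lower (0.0636% and 0.102% of all genes), 17 were lower at an unadjusted p under 0.05 (6.43% of all genes) and the median log2 difference was -4.91, against -0.09 over all genes. Some of them, such as *Il5* and *Il13*, were at or near 0 in the Eomes+ or Klrd1+ cells and passed the filter through the ST2+ sums. The classes were also set apart by *Il1rl1*, so that a difference in ILC2 genes partly follows from the choice of cells. Of the 24 genes shared by NK cells and ILC1s, 1 was called higher (*Il12rb2*), 22 were higher at an unadjusted p under 0.05 (3.78% of all genes) and the median was 5.62; several of these genes, such as *Klrc1* (at most 0.398 CPM) and *Klri2* (at most 0.117 CPM), were near 0 in ST2+ cells, so that these values partly follow from the filter on low counts. Of the 9 genes of ILC1s tested, 0 were called higher and 2 lower (*Cxcr6* and *Tmem176a*; 0.0636% and 0.102% of all genes), with a median of -1.68, against -0.09 over all genes. Summed over that list, ST2+ ILC2-like cells held 2468 to 2820 CPM, again more than the Eomes+ or Klrd1+ cells.

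The cells differed among themselves by *Klrd1*. A division by this gene, added after values had been seen, gave 18, 2, 7 and 39 *Klrd1*-positive and 7, 3, 17 and 24 *Klrd1*-negative cells in the 4 pools, and the *Klrd1*-negative cells were the 51 chosen by *Eomes* alone. *Zbtb16* reached an L of at least 1 in 16 of 66 *Klrd1*-positive cells (24.2%) and in 36 of 51 *Klrd1*-negative cells (70.6%). *Gata3* did so in 22 of 66 (33.3%) and 30 of 51 (58.8%), and *Rora* in 40 of 66 (60.6%) and 42 of 51 (82.4%). These counts join pools of unequal depth. The order held in all 4 pools for *Zbtb16*, but for *Gata3* it came from experiment 2, with 0 of 7 against 11 of 17 in WT and 10 of 39 against 13 of 24 in G3SEKO cells, whereas experiment 1 had 10 of 18 against 4 of 7 and 2 of 2 against 2 of 3. For *Rora* it held in all pools other than G3SEKO of experiment 1, where all 5 cells were positive. The order was the opposite for *Cd7*, at 50 of 66 (75.8%) and 17 of 51 (33.3%), and for *Klrk1*, at 31 of 66 (47.0%) and 9 of 51 (17.6%). *Nkg7*, at 47 of 66 (71.2%) and 31 of 51 (60.8%), and *Ctsw*, at 43 of 66 (65.2%) and 32 of 51 (62.7%), were present in most cells of both kinds over all pools, but in WT of experiment 2 each was found in only 2 of 7 *Klrd1*-positive cells, against 8 of 17 and 11 of 17 *Klrd1*-negative cells. Cells that carried *Eomes* besides *Klrd1* were no more or less often positive than those with *Klrd1* alone for *Zbtb16* (8 of 33 in each), *Cd7* (25 of 33 in each) and *Gata3* (11 of 33 in each), whereas *Il2rb* was found in 18 of 33 against 12 of 33 and *Nkg7* in 26 of 33 against 21 of 33; these differences were not tested.

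In summed reads the same division held in all 4 pools. *Zbtb16* was at 252, 43.1, 23.3 and 132 CPM in *Klrd1*-positive cells and at 597, 904, 533 and 769 CPM in *Klrd1*-negative cells. *Lmo4* was at 497, 425, 229 and 319 CPM against 2575, 1371, 1226 and 1683, *Gata3* at 295, 303.9, 50.5 and 165 against 650.0, 674, 594 and 456, and *Rora* at 430.3, 239.6, 544 and 738 against 1289, 1019.6, 1958 and 1393 CPM. These 4 genes were lower in *Klrd1*-positive cells in all 4 pools, as were 8.68% of all genes tested. *Cd7* was at 1040.1, 690.0, 991 and 1924 CPM against 332, 257, 544 and 492, and *Klrk1* at 676, 892, 1143 and 564 against 178, 0.311, 121 and 362 CPM. Both were higher in all 4 pools, as were 6.56% of all genes tested.

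**Figure D3:**
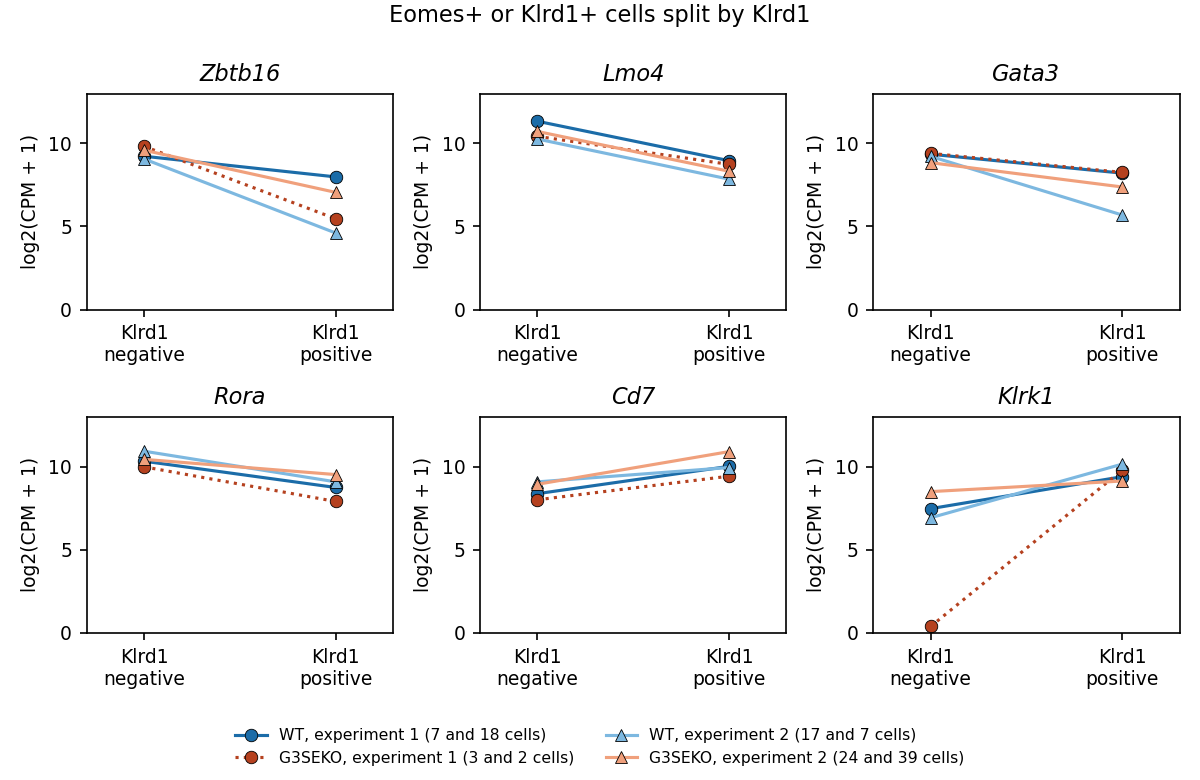
Expression as log2(CPM + 1) of the summed reads of 6 genes in *Klrd1*-negative and *Klrd1*-positive cells, with a line for each pool and cell numbers in the key; the dotted line is the pool with 3 and 2 cells, which was not fitted. *Zbtb16*, *Lmo4*, *Gata3* and *Rora* go down and *Cd7* and *Klrk1* go up in each of the 4 pools.

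The 3 pools with at least 5 cells on each side were fitted with edgeR. Of 9746 genes, 0 were called higher (0.0%) and 1 lower (0.0103%) in *Klrd1*-positive cells, with 133 higher (1.36%) and 153 lower (1.57%) at an unadjusted p under 0.05, and DESeq2 called 54 higher and 48 lower. The gene called was *Lmo4* (log2 difference -2.46 ± 0.21 (SE), adjusted p = 0.0283). Of the other genes, *Rora* (log2 difference -1.52 ± 0.27 (SE), adjusted p = 1), *Gata3* (log2 difference -2.03 ± 0.55 (SE), adjusted p = 1) and *Cd7* (log2 difference 1.43 ± 0.30 (SE), adjusted p = 1) did not pass. The *Lmo4* call was lost without WT of experiment 2 and without the block. Of 23 ILC specification factors tested, 0 were higher and 6 were lower in all 4 pools (6.56% and 8.68% of all genes), with a median log2 difference of -0.82 against -0.14 over all genes, and of 23 genes shared by NK cells and ILC1s, 7 were higher and 0 lower in all 4 pools, among them *Klrk1*, *Klrc1*, *Klrc2* and *Klri2*, which lie beside the gene that divided the cells. Counts over this list partly follow from the filter on low counts, as above.

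The cells were also divided by *Eomes*. In *Eomes*-positive against *Eomes*-negative cells, edgeR called 0 of 11230 genes in either direction (0.0% called), with 458 (4.08%) at an unadjusted p under 0.05, and DESeq2 called 28 higher and 33 lower. The fit rested on the pools with 17 and 8 cells and with 41 and 22 cells, since the others held at most 2 *Eomes*-negative cells.

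The share of these cells among *Id2*-positive cells was 3.67% in WT (25 of 681, exact 95% interval 2.39 to 5.37%) and 11.6% in G3SEKO mice (5 of 43, 3.89 to 25.1%) in experiment 1. In experiment 2 it was 0.468% in WT (24 of 5130, 0.300 to 0.695%) and 5.44% in G3SEKO mice (63 of 1159, 4.20 to 6.90%). The ratio of G3SEKO to WT was 3.17 in experiment 1, where the intervals overlapped, and 11.6 in experiment 2, where they did not. With an L of at least 2 the ratio of experiment 2 was 19.7, from 9 WT and 40 G3SEKO cells. With 1 pool per genotype in an experiment no test of the genotypes was made. The hashtags of experiment 1 gave 11 of 259, 9 of 232 and 5 of 190 cells for WT (A0307, A0308 and A0309) and 4 of 21, 1 of 7 and 0 of 15 cells for G3SEKO (A0310, A0311 and A0312). The 0 of 15 allows a share of up to 21.8%.

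The share depended on what it was divided by. ST2+ ILC2-like cells made up 418 and 3533 of the *Id2*-positive cells of WT, but 1 and 48 of those of G3SEKO mice, so that the denominators of the genotypes differ in kind. Among *Il1rl1*-negative *Id2*-positive cells the share was 9.73% in WT (6.39 to 14.0%) and 12.2% in G3SEKO mice (4.08 to 26.2%) in experiment 1, a ratio of 1.25, and 1.52% (0.974 to 2.25%) and 5.68% (4.39 to 7.21%) in experiment 2, a ratio of 3.74. Per ILCP-like cell there were 0.472 and 0.625 Eomes+ or Klrd1+ cells in WT and G3SEKO mice of experiment 1 (ratio 1.32), and 0.164 and 0.256 in experiment 2 (ratio 1.56). With these limits the G3SEKO value was higher for each denominator in both experiments, but in experiment 1 the direction over the narrower denominators depended on the limits. With an L of at least 2 for *Eomes* or *Klrd1*, the ratio in experiment 1 was 0.737 over *Il1rl1*-negative cells and 0.610 per ILCP-like cell, from 2 G3SEKO cells. When 1 *Id2* read sufficed, these ratios were 0.806 and 0.917, and with no *Cd3* read allowed they were 0.570 and 0.614, from 1 G3SEKO cell. Over *Id2*-positive cells the same 3 settings gave 1.86, 1.94 and 1.44. In experiment 2 the G3SEKO value was higher for each denominator under all alternatives tried. With cells that had an *S100a8* read left out, 0 of 5 cells remained in G3SEKO mice and 6 of 184 in WT in experiment 1, which gives no ratio to read there.

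**Figure D4:**
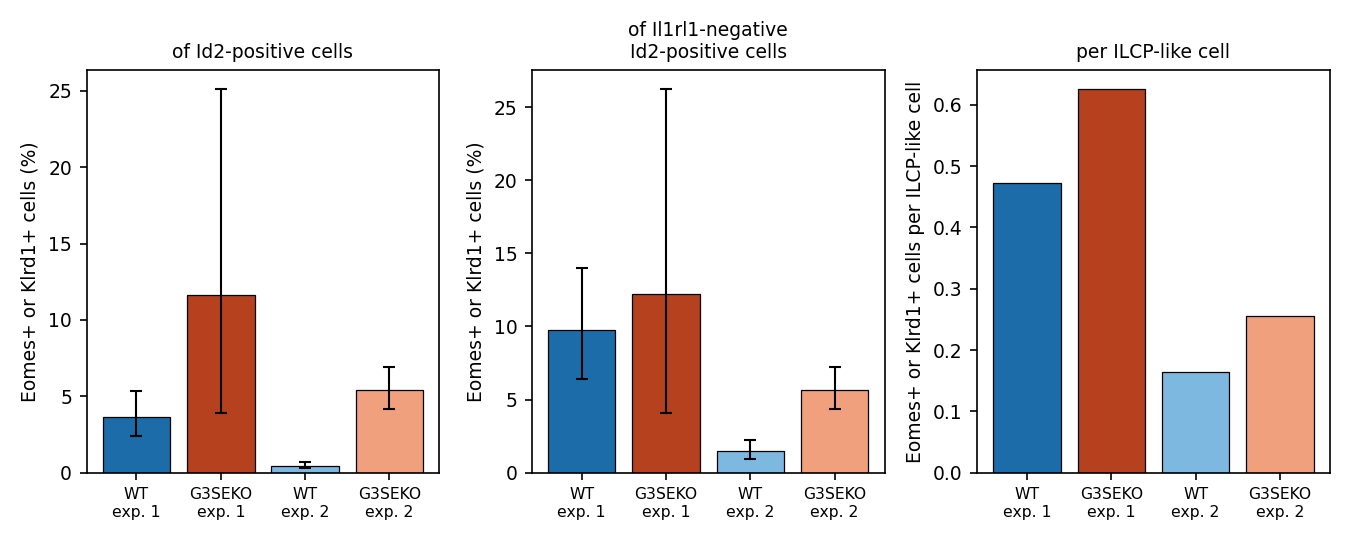
Eomes+ or Klrd1+ cells of each pool as percent of *Id2*-positive cells, as percent of *Il1rl1*-negative *Id2*-positive cells, and per ILCP-like cell, with exact 95% binomial intervals as error bars in the first 2 panels. G3SEKO bars are higher than the WT bars of the same experiment in each panel, at 11.6 against 3.67% and 5.44 against 0.468% in the leftmost.

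*Gata3* (GRCm38 chr2:9857078-9890034, minus strand), the gene to which the deleted super-enhancers are related, did not move in one direction in these cells. WT cells held 388 (experiment 1) and 500.0 CPM (experiment 2), and G3SEKO cells held 499 and 270.1 CPM. The log2 ratio of G3SEKO to WT, after 2 reads were added, was 0.36 and -0.89. With thinned cells the value of experiment 1 was -0.18, and with an L of at least 2 that of experiment 2 was 0.15, so that neither direction held under all alternatives. A *Gata3* read was found in 24 of 25, 5 of 5, 20 of 24 and 49 of 63 cells, and an L of at least 1 in 14, 4, 11 and 23. ILCP-like cells had the same order, with 675 and 917 CPM in experiment 1 and 726 and 467 CPM in experiment 2. In ST2+ ILC2-like cells, *Gata3* was at 1393 and 1039.8 CPM in WT of the 2 experiments and at 298 CPM in G3SEKO mice of experiment 2.

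The makeup of the cells differed between pools as well, without a single direction by genotype. *Klrd1*-positive cells were 18 of 25 in WT and 2 of 5 in G3SEKO mice in experiment 1, but 7 of 24 and 39 of 63 in experiment 2. Within *Klrd1*-negative cells of experiment 2, WT mice had 594 CPM of *Gata3* and G3SEKO mice 456 CPM, and within *Klrd1*-positive cells the values were 50.5 and 165 CPM, so that the difference over all cells was not seen in the *Klrd1*-positive ones. In experiment 1 they were 650.0 and 674 CPM, and 295 and 303.9 CPM. The part of this makeup in the *Gata3* values was not tested.

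**Figure D5:**
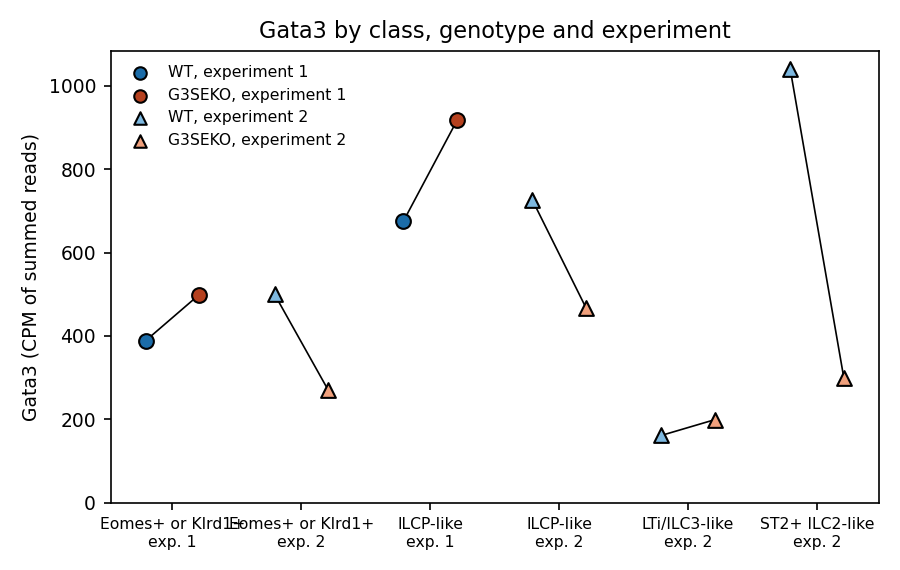
*Gata3* in CPM of the summed reads for WT and G3SEKO cells of each class and experiment, with a line joining the genotypes of an experiment. In Eomes+ or Klrd1+ cells it goes from 388 to 499 CPM in experiment 1 and from 500.0 to 270.1 CPM in experiment 2, and in ILCP-like cells from 675 to 917 and from 726 to 467 CPM.

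A test of the genotypes over both experiments, with the experiment as a term, was added after values had been seen. In the Eomes+ or Klrd1+ cells, edgeR called 0 of 12079 genes (0.0% called), with 151 higher and 105 lower at an unadjusted p under 0.05, and the *Gata3* log2 difference was -0.13 ± 0.47 (SE, adjusted p = 1). *Nkg7* was higher in G3SEKO cells of both experiments, at 1129.7 against 788 CPM and 1038 against 376 CPM, as was *Il2rb*, at 528 against 345 CPM and 419 against 129 CPM, and neither passed the threshold (adjusted p = 1 for both). In ILCP-like cells the same test called 0 of 14962 genes, with 137 at an unadjusted p under 0.05.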

How the data were processed

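Reads were trimmed by the authors (Cutadapt), aligned by Bowtie2 against GRCm38 (mm10) with Ensembl genes, and cells analysed in Seurat 4. The deposited values are counts of reads for each gene in each cell, neither normalized nor collapsed to molecules. The name of a cell holds its hashtag call. Counts of hashtag reads were also deposited by the authors. Cells needed at least 83012 reads (experiment 1) or 6733 reads (experiment 2) and at most 10% mitochondrial reads. Doublets were treated through the hashtags alone, and no cell deposited as a hashtag doublet was used. In experiment 2, 80 such cells were *Id2*-positive and 0 met the limits on *Eomes* and *Klrd1*, which allows a share of up to 4.51%.

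Reads were summed per class and pool in Python 3.11.15 and tested with edgeR 4.0.16 (R 4.3.3; TMM, filter on low counts, pool as a block, 5 cells a sum at least). DESeq2 1.42.0 was an alternative. The scripts were tested on simulated data with 200 genes changed 8-fold. Of these, 57.5% were recovered against ILCP-like cells, 28.5% in the division by *Eomes* and 26.5% in that by *Klrd1*. A gene that was not called may therefore still differ. Cells are not replicates. With the pool as a block, p-values measure how differences between classes vary across pools, after differences between the pools themselves are taken out. They do not measure the spread between mice. Named genes were the largest changes among those with an adjusted p under 0.05, the same direction in every pool and at least 50 CPM in the higher class (10 in each direction for ILCP-like cells, 5 for the others), and members of gene lists. The members and lists were chosen with earlier results of these data known. The test of the genotypes, the division by *Klrd1* and the list of *Klr* genes were added after seeing the data. Positions are from GENCODE for GRCm38, another annotation than the authors'. Of the deposited genes, 23058 were listed in both experiments.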

Additional observations from a re-analysis of the deposited data

Results flagged for a closer look

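*Gata3* in the Eomes+ or Klrd1+ cells went in opposite directions in the 2 experiments. On the log2 scale, G3SEKO over WT was 0.36 in experiment 1 (5 and 25 cells) and -0.89 in experiment 2 (63 and 24 cells). Each direction turned under 1 alternative, to -0.18 in experiment 1 with thinned cells and to 0.15 in experiment 2 with an L of at least 2. There was 1 pool per genotype in each experiment, so the difference between the experiments was not tested.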

How the results depend on the processing

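Counts of called genes depended on the processing more than the directions did. DESeq2 called 569 genes against ILCP-like cells, 1159 against LTi/ILC3-like cells, 885 against ST2+ ILC2-like cells, 61 by *Eomes* and 102 by *Klrd1*, where edgeR called 1, 67, 26, 0 and 1. Without the replicate block the counts were 0, 164, 51, 0 and 0; the classes of a pool are different cells of the same mice, and the correlations of their deviations were 0.085 (WT) and 0.12 (G3SEKO) in experiment 1 and 0.015 and 0.16 in experiment 2. With each cell thinned to the read limit of experiment 2, they were 15, 250, 218, 4 and 3. Without the filter on low counts they were 108 against LTi/ILC3-like cells, 62 against ST2+ ILC2-like cells, 11 by *Eomes* and 16 by *Klrd1*. RLE size factors gave 122 against LTi/ILC3-like cells. An L of at least 2 gave 102 and 53 against LTi/ILC3-like and ST2+ ILC2-like cells, and an L of at least 0.5 gave 15 against the latter. Without cells with an *S100a8* read, which removes most cells of experiment 1, 0, 11 and 1 genes were called against the 3 classes. Leaving out a pool in turn gave 0 to 2 genes against ILCP-like cells, 0 to 160 against LTi/ILC3-like cells, 0 to 75 against ST2+ ILC2-like cells and 0 to 12 by *Klrd1*. The cause of these changes was not tested.

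Without cells with an *S100a8* read, 0 G3SEKO cells were left in experiment 1, so that the computed share ratio of 0 cannot be read as a change. The ratio of experiment 2 was 19.7 with an L of at least 2 and 15.4 after thinning. The *Gata3* log2 ratio was -0.18 after thinning and 1.298 with no *Cd3* read allowed in experiment 1, and 0.15 with an L of at least 2 in experiment 2. *Tbx21* against ILCP-like cells was -0.99 on the log2 scale with an L of at least 2. For single genes, 432 values kept direction and side of the threshold, 22 passed it, 96 no longer passed and 1 reversed. The division by *Eomes* could not be fitted without a pool or without cells with an *S100a8* read.

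The 5 G3SEKO cells of experiment 1 limit every value of that pool, and the depth of experiment 2 limits what was detected per cell there.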
